A study of Rattus norvegicus with 16 samples.

Results

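The insulin-like growth factor (IGF) genes described here are the ligands Igf1 and Igf2, the receptors Igf1r and Igf2r, and the binding proteins Igfbp2 to Igfbp7, measured in the left ventricle of rats. These 10 genes, of 14217 named on the array, were taken by gene symbol and all 10 were found, on 23 probe sets. Where a gene had several probe sets, the one with the highest mean over all 16 arrays stands for the gene, so a probe set's brightness was used to choose it and is given only as a description; the closest choice was that for Igf1r, with means of 7.31 and 7.15. The family itself was selected with results of these arrays known, among them the higher Igf2 of sedentary high-capacity rats.

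Each of the 16 arrays held RNA from the left ventricle of 1 female rat aged about 7 months. The rats belonged to generation 16 of a pair of lines derived from N:NIH stock, in which breeders were picked by a treadmill test at about 11 weeks for high (High Capacity Runner, HCR) or low (Low Capacity Runner, LCR) aerobic running capacity. In each line 4 age-matched rats remained sedentary and 4 were trained for 8 weeks, 5 days a week, in sessions of 1.5 hours on a 25-degree incline, with 10 minutes of warm-up and then 8 minutes at 85 to 90% of maximal oxygen uptake in turn with 2 minutes at 50 to 60%. There was no unselected line, so HCR and LCR can be compared only with each other, and each line descends from 1 selection, so what the selection changed and what drifted in a line cannot be told apart. The 4 rats of a group are separate animals, and this number limits the precision.

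IGF1 and IGF2 are growth factors that act through IGF1R, a receptor tyrosine kinase that signals through insulin receptor substrates, phosphatidylinositol 3-kinase and AKT. IGF1R signalling in cardiomyocytes is known for its part in the growth of the heart with exercise. IGF2R, the cation-independent mannose 6-phosphate receptor, takes up IGF2 for degradation. The binding proteins hold IGFs in the extracellular space or the circulation and can block or assist their action; Igfbp7 codes for a related protein of low IGF affinity. Igf2 is imprinted, expressed from the paternal allele in most tissues, and its level in rodents is high before birth and low afterwards.

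Igf2 was the member called between the sedentary lines, by 1 of its 4 probe sets: its RNA was 1.47-fold higher in sedentary HCR than in sedentary LCR rats. The call held in 12 of 16 fits that each left out 1 rat. Among trained rats no such difference was seen, but a difference between the lines in their training effect did not pass the test. Igfbp2 was 1.25-fold higher in sedentary HCR rats and Igfbp5 1.74-fold lower in trained than in sedentary LCR rats, but neither passed the threshold of an adjusted p of 0.05 or less over all probe sets tested. Igf1r, Igf2r and Igfbp4 had group means within 0.17 of each other on the log2 scale. Values are the authors' log expression values, read as log2, and levels of different genes are not compared.

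Between the sedentary groups, 1 of the 10 genes was called (Igf2, higher in HCR), where 4.99% of the 31042 probe sets were called. No member was called in any other comparison: the line difference among trained rats (0.0966% of probe sets called), training within HCR (0%) and within LCR (0.00322%), the difference between the lines in their training effect, here the interaction (0%), the line difference averaged over both states (3.84%) and the training difference averaged over both lines (0.00644%). At an unadjusted p under 0.05, 4, 1, 3, 2, 2, 4 and 3 members passed in these 7 comparisons in the order given, where 27.7%, 7.33%, 13.9%, 5.57%, 9.88%, 24.1% and 9.24% of all probe sets did. The values of the 2 sedentary groups did not overlap for 5 of the 10 genes (Igf2 and Igfbp2 higher in HCR, Igfbp5, Igfbp6 and Igfbp7 lower), where 18.3% of all probe sets did not overlap. Counted by probe set, as that share is, it was 6 of the members' 23. The trained lines overlapped for each of the 10 genes (3.14% of probe sets did not overlap). Igf2 and Igfbp2 did not overlap between trained and sedentary HCR rats (8.00%), nor Igfbp5 between trained and sedentary LCR rats (2.82%). By probe set these were 2 of 23 in HCR and 1 of 23 in LCR. The members split 4 higher and 6 lower between the sedentary lines, with a median difference of -0.05 against 0.02 over all probe sets.

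**Figure D1:**
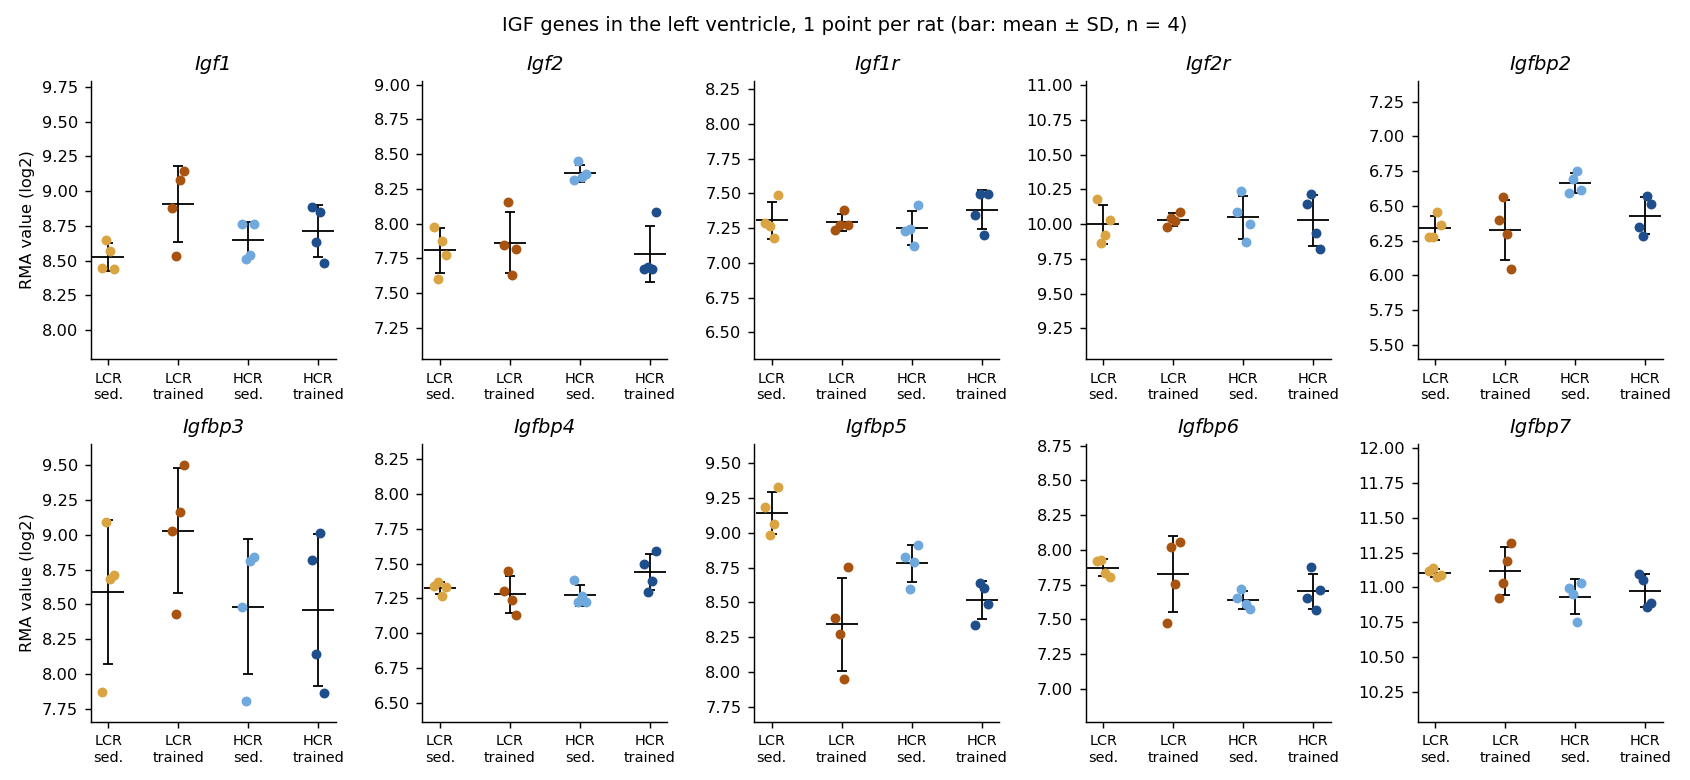
RMA value (log2) of the probe set that stands for each of the 10 IGF genes, 1 point per rat, in sedentary and trained LCR and HCR rats; bars show mean ± SD, n = 4, and all panels span the same range around their own level. Igf2 lies between 8.31 and 8.45 in sedentary HCR rats and at 8.16 or lower in the other 12 rats, Igfbp5 is highest in sedentary LCR rats, and Igfbp3 varies most within groups.

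The sedentary HCR rat numbered 5 is labelled female like the rest, but its probe sets for Xist, the RNA of the inactive X chromosome, lay between 3.76 and 4.94, against 7.56 to 10.34 in the other 15 rats. Some results on sedentary HCR rats are also given without it, where stated, and the others include it. The arrays also differed in the spread of all their values. The interquartile range was 2.02 ± 0.057 (SD, n = 4) in sedentary HCR rats, 2.13 ± 0.052 in trained HCR, 2.17 ± 0.026 in sedentary LCR and 2.15 ± 0.097 in trained LCR rats. Sedentary HCR arrays lay between 1.97 and 2.10, all below the sedentary LCR arrays (2.14 to 2.21). Trained HCR and trained LCR arrays began at 2.06 and overlapped both sedentary groups. Array medians lay between 5.85 and 5.95.

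In the sedentary HCR rats Igf2 read 8.31, 8.45, 8.34 and 8.36 (mean 8.36 ± 0.061, SD, n = 4). In the sedentary LCR rats it read 7.97, 7.60, 7.88 and 7.78 (7.81 ± 0.16), all below the lowest sedentary HCR rat. The difference was 0.56 ± 0.11 (SE; 95% interval 0.32 to 0.79, adjusted p = 0.0221). This difference was known when the family was chosen, so it is a description of these arrays and no independent test. It was 0.57 without the rat with low Xist, with an adjusted p of 0.0588, and leaving out any of 3 other sedentary rats also ended the call, at 0.49 to 0.55 (adjusted p from 0.0514 to 0.0688). With the interquartile range of each array as a covariate, an alternative chosen after seeing the data, the difference was 0.34 ± 0.14 (adjusted p = 0.597), and 2 probe sets of the whole array were then called.

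In trained HCR rats Igf2 read 7.67, 7.69, 7.68 and 8.08 (7.78 ± 0.20), each below every sedentary HCR rat. The difference of trained from sedentary HCR rats was -0.58 ± 0.11 (95% interval -0.82 to -0.35), a 1.50-fold lower level, with an adjusted p of 0.109 (-0.59, adjusted p = 0.305, without the sedentary rat with low Xist). Without the trained HCR rat numbered 6, the highest of its group, the difference was -0.68 and was called (adjusted p = 0.0212). That was the 1 call in 16 fits that each left out 1 rat (adjusted p up to 0.371). None of 9 alternative settings called the difference, which ran from -0.66 to -0.22. In trained LCR rats Igf2 read 7.84, 8.16, 7.63 and 7.82 (7.86 ± 0.22), on both sides of the sedentary LCR rats. The training difference in LCR was 0.06 ± 0.11 and the line difference among trained rats -0.08 ± 0.11, with a 95% interval of -0.32 to 0.15. The interaction was -0.64 ± 0.16 (adjusted p = 0.475), so a difference between the lines in the training effect on Igf2 did not pass the test. By group mean, sedentary HCR rats came first, then trained LCR, sedentary LCR and trained HCR rats, and these last 3 lie within 0.08, less than their SDs.

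The other probe sets of Igf2 were dimmer and showed less. They are 1371206_a_at, 1398322_at and 1388252_at, which the array annotation ties to 1 source sequence, not that of the called 1367571_a_at. Their means over 16 arrays were 5.79, 5.70 and 5.40, close to the array medians, against 7.95 for the called one. Their line differences among sedentary rats were 0.02, 0.12 and 0.09 (adjusted p = 0.862, 0.204 and 0.478), all with the sign of the called probe set. Their training differences in HCR were -0.16, -0.08 and -0.03, again of the same sign and none called. With the mean of its 4 probe sets standing for Igf2, the sedentary line difference was 0.20 (adjusted p = 0.0813), so the call rests on 1 probe set.

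**Figure D2:**
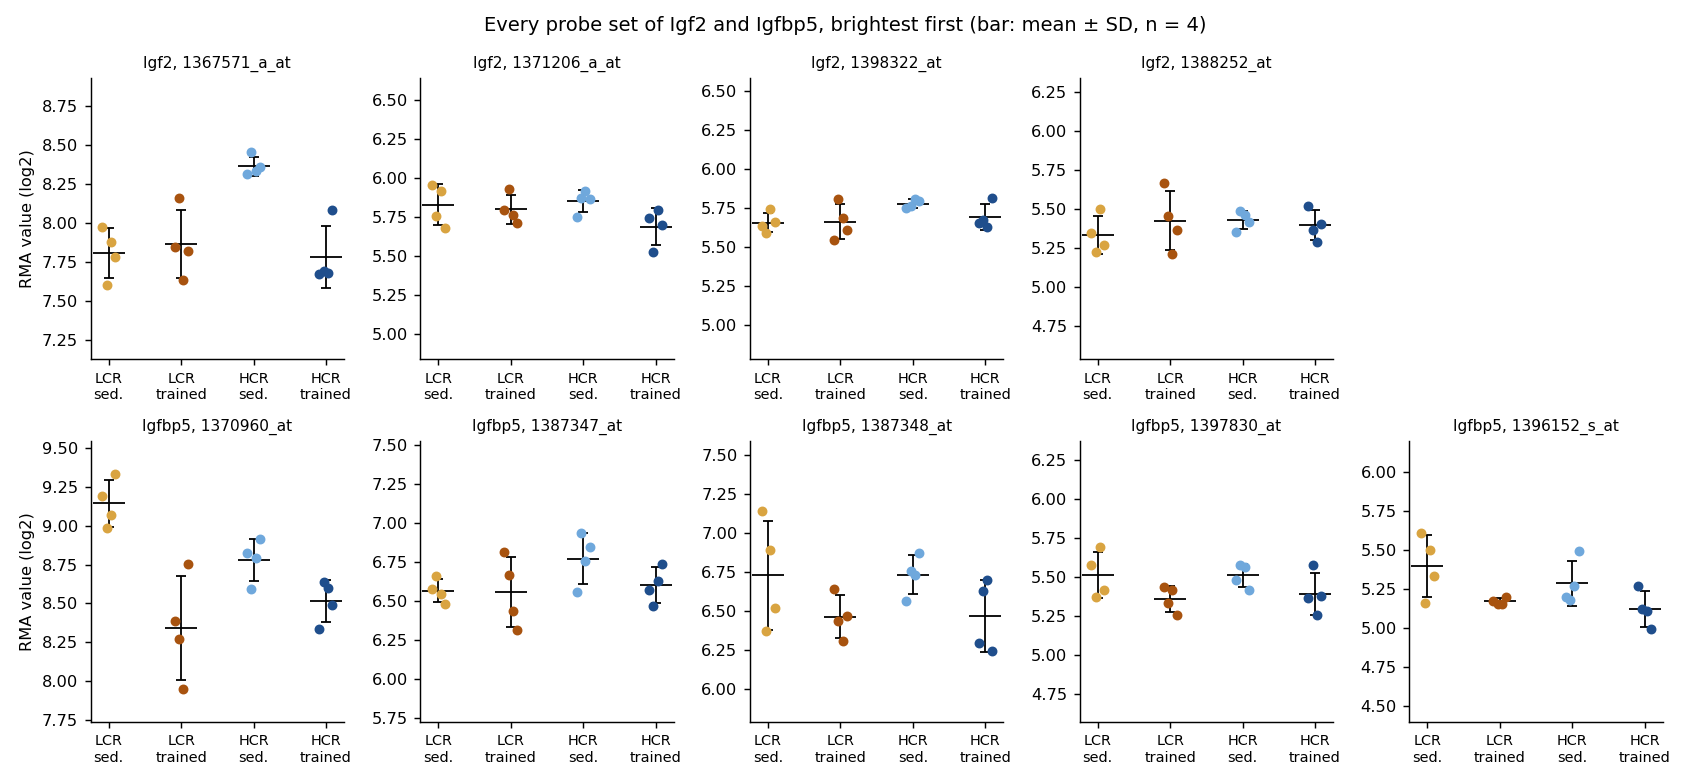
RMA value (log2) of all 4 probe sets of Igf2 and all 5 of Igfbp5 by group, brightest first, 1 point per rat; bars show mean ± SD, n = 4, and all panels span the same range around their own level. The dimmer probe sets of both genes move less between groups than the brightest, and all 5 Igfbp5 probe sets have lower means in trained than in sedentary rats of both lines.

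Igf1 codes for the ligand that growth hormone induces in liver and that the heart also makes. It read 8.45, 8.64, 8.57 and 8.44 in sedentary LCR rats and 8.88, 8.53, 9.08 and 9.14 in trained LCR rats, of which 3 of 4 lay above all sedentary ones. The training difference in LCR was 0.38 ± 0.12, a 1.30-fold higher level, and was not called (adjusted p = 0.628). In HCR rats it read 8.76, 8.51, 8.54 and 8.76 without training and 8.88, 8.63, 8.85 and 8.48 with it, which overlap, with a difference of 0.07 ± 0.12. The interaction was -0.32 ± 0.17 (adjusted p = 0.549). The other probe sets, 1388469_at and 1382599_at, had training differences of 0.30 and 0.30 in LCR and of 0.05 and 0.09 in HCR, of the same sign. Between sedentary lines they had the opposite sign (-0.13 and -0.17) to the brightest (0.12), and none of the 3 was called there.

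The receptors differed least. Igf1r ranged over all 16 rats from 7.12 to 7.50, with group means of 7.25 ± 0.12 in sedentary HCR, 7.38 ± 0.14 in trained HCR, 7.31 ± 0.13 in sedentary LCR and 7.29 ± 0.063 in trained LCR rats. Its training difference in HCR was 0.13 ± 0.08 (95% interval -0.04 to 0.31, adjusted p = 0.463), and its second probe set, 1392492_at, gave 0.18. Igf2r ranged from 9.82 to 10.24, with group means between 10.00 and 10.05, and every group overlapped every other. Its sedentary line difference was 0.05 ± 0.09 (95% interval -0.15 to 0.25), so a change such as that of Igf2 lies outside the interval. The second Igf2r probe set, 1367636_at, gave 0.01.

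Igfbp2 and Igfbp5, whose genes are next to each other among the measured genes of the RefSeq rat assembly GRCr8, had differences of opposite sign between the sedentary lines, and neither was called. IGFBP2 is a circulating binding protein that is also made in tissues. Igfbp2 read 6.60, 6.69, 6.75 and 6.62 in sedentary HCR rats and 6.28, 6.28, 6.46 and 6.36 in sedentary LCR rats. The difference was 0.32 ± 0.09 (adjusted p = 0.0543; with the spread of the array as a covariate 0.05 ± 0.09, adjusted p = 0.929; without the rat with low Xist 0.29, adjusted p = 0.145). Among trained rats it read 6.35, 6.28, 6.57 and 6.51 in HCR and 6.40, 6.56, 6.30 and 6.04 in LCR, which overlap (0.10 ± 0.09). All 4 trained HCR rats lay below the sedentary ones, by -0.24 ± 0.09 (adjusted p = 0.297). Averaged over both states the line difference was 0.21 ± 0.07 (adjusted p = 0.0717).

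IGFBP5 binds to extracellular matrix and is the most conserved of the family. Igfbp5 read 9.19, 8.98, 9.07 and 9.33 in sedentary LCR rats and 8.39, 8.27, 7.95 and 8.76 in trained LCR rats, with no overlap. The training difference in LCR was -0.80 ± 0.13 (95% interval -1.08 to -0.53), the largest in size over the 10 genes and the 4 comparisons of 2 groups, with an adjusted p of 0.133. Without the trained LCR rat numbered 4, the highest of its group, the difference was -0.94 and was called (adjusted p = 0.00624). That was the 1 call in 16 fits that each left out 1 rat (adjusted p up to 0.631). None of 9 alternative settings called the difference, which ran from -0.81 to -0.29 (adjusted p from 0.0803 to 0.855). Of 8 fibroblast markers, 7 had lower values in trained than in sedentary LCR rats, none called (47.9% of all probe sets had lower values). With training in HCR 7 of the 8 had higher values, none called (45.6% of all probe sets). The mean level of the markers, centred on the 16 rats, was -0.003, 0.09, -0.27 and 0.31 in trained LCR rats 1 to 4, in the order of the Igfbp5 values above. Rats 4 and 3 were highest and lowest in both, and rats 1 and 2 ran in opposite order. The part of fibroblast markers in the Igfbp5 difference was not tested. In HCR rats Igfbp5 read 8.82, 8.59, 8.79 and 8.91 without training and 8.34, 8.64, 8.60 and 8.49 with it, which overlap at the lowest sedentary rat (-0.26 ± 0.13, adjusted p = 0.38).

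Averaged over both lines, the training difference of Igfbp5 was -0.53 ± 0.09, a 1.45-fold lower level (adjusted p = 0.116). The other probe sets of Igfbp5 gave -0.09, -0.27, -0.20 and -0.14, each negative and none called. Quantile normalization of the summarised values gave -0.56 for the brightest, which was called (adjusted p = 0.0498), and so was the value without the same trained LCR rat (-0.60, adjusted p = 0.0271). These were the 1 call in 8 alternative settings (adjusted p up to 0.188) and the 1 call in 16 fits leaving out a rat (up to 0.294). The interaction was 0.54 ± 0.18 (adjusted p = 0.475). Between sedentary lines the brightest Igfbp5 probe set was -0.36 ± 0.13 in HCR relative to LCR (adjusted p = 0.0968), without overlap. It was as large without the rat with low Xist (-0.36, adjusted p = 0.185). The other probe sets did not all share this sign. Sedentary HCR and LCR means were 6.77 and 6.56 for 1387347_at, the opposite sign, and 5.29 and 5.40 for 1396152_s_at. For 1387348_at they were 6.73 and 6.73, and for 1397830_at 5.51 and 5.51.

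Igfbp3 codes for the main carrier of IGFs in blood and is made by endothelial and other stromal cells in tissues. It varied most from rat to rat: 8.48, 7.81, 8.81 and 8.85 in sedentary HCR, 8.82, 8.15, 9.02 and 7.86 in trained HCR, 7.87, 9.10, 8.68 and 8.71 in sedentary LCR, and 9.03, 8.43, 9.16 and 9.51 in trained LCR rats. All groups overlap, with SDs from 0.45 to 0.55. The largest differences were -0.57 ± 0.30 between trained lines (adjusted p = 0.747) and 0.44 ± 0.30 with training in LCR (adjusted p = 0.965). The second probe set, 1386881_at, gave -0.72 and 0.60 for the same comparisons, again not called. By both probe sets rat 2 was the lowest of sedentary and of trained LCR rats. The highest trained LCR rat was rat 4 by the first (9.51) and rat 3 by the second (8.95).

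The other binding proteins had smaller differences. Igfbp4, an inhibitory binding protein that the protease PAPP-A cleaves, read 7.38, 7.22, 7.26 and 7.22 in sedentary HCR and 7.49, 7.30, 7.38 and 7.59 in trained HCR rats, a difference of 0.17 ± 0.07 with overlap (adjusted p = 0.335). In LCR rats it was 7.33 ± 0.043 without training and 7.28 ± 0.13 with it. Igfbp6, which binds IGF2 in preference to IGF1, read 7.65, 7.72, 7.61 and 7.57 in sedentary HCR rats and 7.92, 7.93, 7.84 and 7.80 in sedentary LCR rats. All 4 HCR rats lay below all 4 LCR rats, by -0.23 ± 0.10, which was not called (adjusted p = 0.154), and the second probe set, 1387625_at, gave -0.14. Without the rat with low Xist the difference was -0.22.

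Trained rats of both lines read from 7.57 to 7.87 (HCR) and from 7.47 to 8.05 (LCR) for Igfbp6, which overlap. Igfbp7, made by vessels and stromal cells, read 11.00, 10.95, 10.75 and 11.03 in sedentary HCR rats and 11.12, 11.14, 11.07 and 11.09 in sedentary LCR rats, again without overlap (-0.17 ± 0.08, adjusted p = 0.196; -0.11 without the rat with low Xist, its group's lowest). Averaged over both states its line difference was -0.16 ± 0.06 (adjusted p = 0.127). Training differences of Igfbp6 and Igfbp7 lay between -0.05 and 0.06 in both lines.

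**Figure D3:**
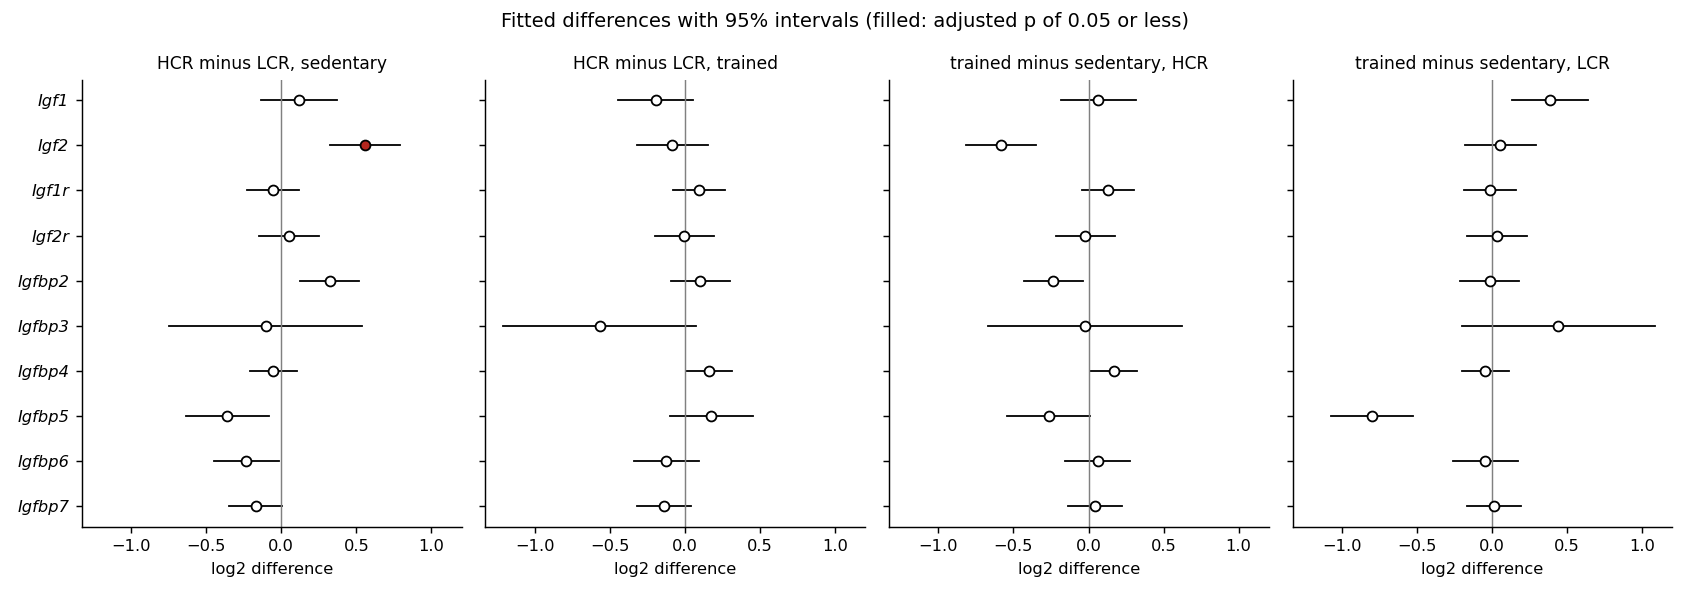
Fitted differences (log2, points) with 95% intervals (lines) of the 10 IGF genes in 4 comparisons: HCR minus LCR among sedentary and among trained rats, and trained minus sedentary rats in HCR and in LCR; a filled point has an adjusted p of 0.05 or less. Igf2 between sedentary lines is the filled point, at 0.56, and the widest intervals are those of Igfbp3.

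Across the 16 rats some members varied together. Of 45 pairs, 4 passed an adjusted p of 0.05 for Pearson's r (permutation test with 100000 resamples, Benjamini-Hochberg adjustment over the 45 pairs). Igf1 and Igfbp3 varied together over rats (r = 0.75, adjusted permutation p = 0.0138; rho = 0.79, adjusted permutation p = 0.0106), with r = 0.62 without the 2 rats farthest from the median of Igf1 and r = 0.77 after group means were removed. Igf2 and Igfbp2 had r = 0.75 (adjusted permutation p = 0.0138) and rho = 0.74 (adjusted permutation p = 0.0252), with r = 0.67 without the 2 farthest rats but 0.47 within groups. Igfbp2 and Igfbp7 ran opposite, with r = -0.83 (adjusted permutation p = 0.00675) and rho = -0.82 (0.0081), r = -0.66 without the 2 farthest rats and -0.82 within groups. Igfbp6 and Igfbp7 had r = 0.67 (adjusted permutation p = 0.0485), but rho = 0.66 missed the threshold (adjusted permutation p = 0.0729). The 16 points of each pair share arrays and the 4 groups, and without the rat with low Xist the r of these 4 pairs were 0.78, 0.71, -0.79 and 0.67.

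**Figure D4:**
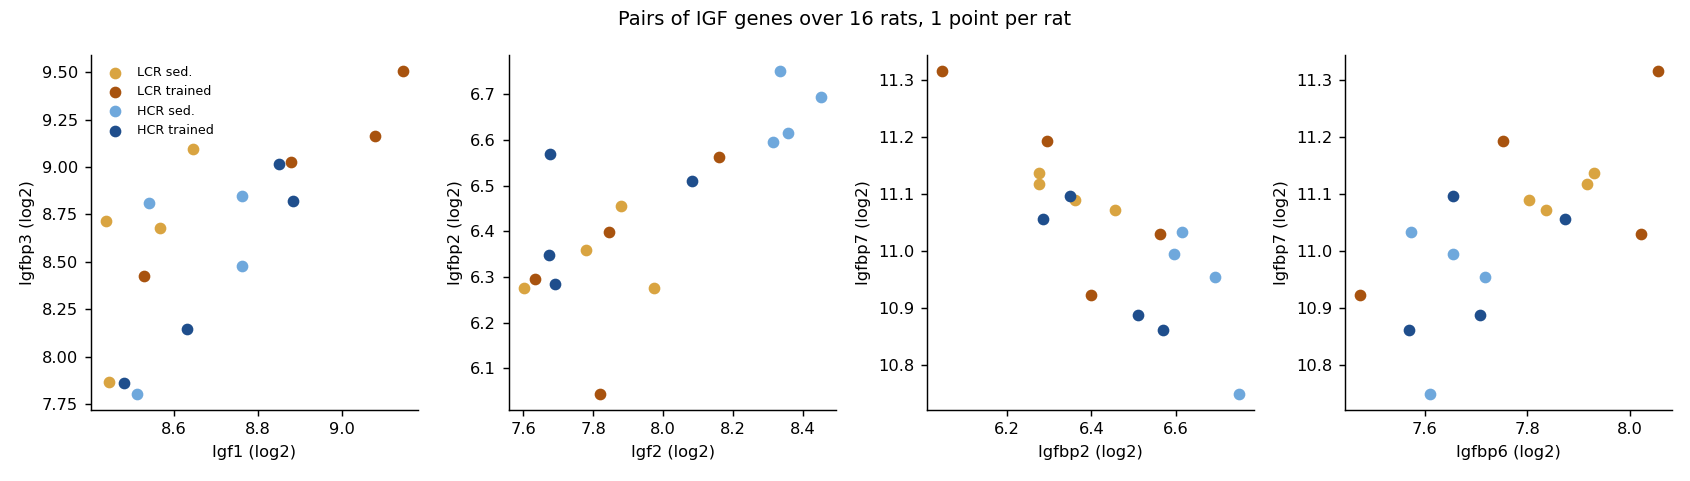
RMA values (log2) of 4 pairs of IGF genes, 1 point per rat, coloured by group: Igf1 with Igfbp3 (r = 0.75), Igf2 with Igfbp2 (r = 0.75), Igfbp2 with Igfbp7 (r = -0.83) and Igfbp6 with Igfbp7 (r = 0.67). The rats highest in Igf1 are trained LCR rats high in Igfbp3, and the sedentary HCR rats are highest in both Igf2 and Igfbp2.

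Part of this common variation ran with the spread of the whole array. Igfbp2 had r = -0.90 with the interquartile range over the 16 arrays (adjusted permutation p = 0.0001, the smallest that these resamples give over 10 genes), rho = -0.81, r = -0.84 without the 2 farthest arrays and -0.81 within groups. Igf2 had r = -0.78 (adjusted permutation p = 0.00163), rho = -0.70, r = -0.65 without the 2 farthest arrays and -0.52 within groups. Igfbp7 had r = 0.80 (adjusted permutation p = 0.00125), rho = 0.77, 0.74 without the 2 farthest arrays and 0.79 within groups. Igf1 and Igfbp3 had r of 0.38 and 0.36, and neither passed. After quantile normalization of the summarised values, which gives all arrays the same spread, r was -0.92 for Igfbp2, -0.84 for Igf2 and 0.66 for Igfbp7 with the original range. The part of array spread in the differences between groups was not tested. All sedentary HCR arrays had a narrower range than all sedentary LCR arrays. Line and array spread therefore cannot be told apart among sedentary rats, and the covariate fit above does not separate them.

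**Figure D5:**
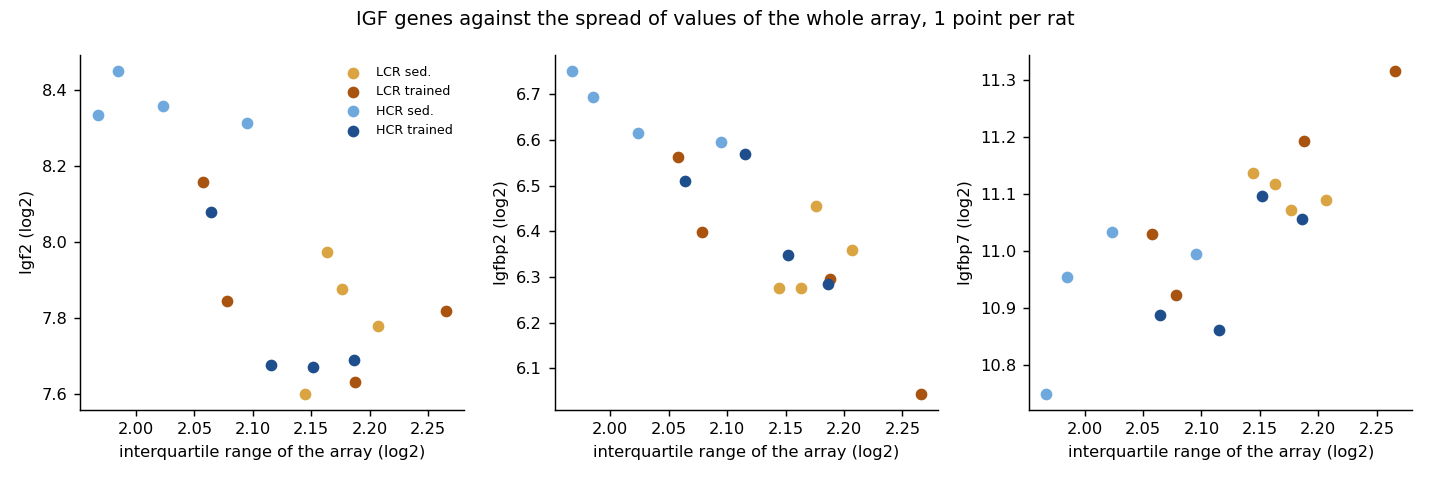
RMA value (log2) of Igf2, Igfbp2 and Igfbp7 against the interquartile range of all values of the array (log2), 1 point per rat, coloured by group. The 4 sedentary HCR arrays lie at 1.97 to 2.10, and the 3 genes have r of -0.78, -0.90 and 0.80 with this range over 16 arrays.

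The sequences before the start sites of the genes in these 4 pairs are shown to set the pairs side by side. Each line holds the 250 bases before a gene start of RefSeq on assembly GRCr8, 5′ to 3′ on the gene's strand; capitals mark a GC box (GGGCGG or its other strand CCGCCC). Igf2 has 2 starts in that table.
Igf2 start 1, chr1:207253981-207254230, minus strand: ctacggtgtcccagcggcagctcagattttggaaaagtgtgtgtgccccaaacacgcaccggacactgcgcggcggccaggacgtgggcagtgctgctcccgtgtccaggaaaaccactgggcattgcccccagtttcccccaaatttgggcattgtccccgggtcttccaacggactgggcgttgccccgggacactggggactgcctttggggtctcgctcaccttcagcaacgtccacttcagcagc
Igf2 start 2, chr1:207250476-207250725, minus strand: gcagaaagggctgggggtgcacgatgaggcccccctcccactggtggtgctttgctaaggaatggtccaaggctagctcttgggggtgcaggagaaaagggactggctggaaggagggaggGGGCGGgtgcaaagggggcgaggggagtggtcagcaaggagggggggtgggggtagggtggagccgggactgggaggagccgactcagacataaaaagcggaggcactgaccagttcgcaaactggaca
Igfbp2, chr9:81864561-81864810, plus strand: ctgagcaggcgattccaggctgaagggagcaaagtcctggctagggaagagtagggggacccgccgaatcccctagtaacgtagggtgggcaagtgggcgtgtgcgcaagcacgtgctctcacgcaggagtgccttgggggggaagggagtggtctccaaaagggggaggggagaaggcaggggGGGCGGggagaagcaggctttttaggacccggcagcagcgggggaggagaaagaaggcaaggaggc
Igf1, chr7:24172282-24172531, plus strand: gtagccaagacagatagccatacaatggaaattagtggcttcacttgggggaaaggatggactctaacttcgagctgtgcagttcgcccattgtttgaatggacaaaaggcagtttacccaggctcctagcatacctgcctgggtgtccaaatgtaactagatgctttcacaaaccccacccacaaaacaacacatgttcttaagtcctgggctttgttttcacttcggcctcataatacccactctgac
Igfbp3, chr14:86277945-86278194, minus strand: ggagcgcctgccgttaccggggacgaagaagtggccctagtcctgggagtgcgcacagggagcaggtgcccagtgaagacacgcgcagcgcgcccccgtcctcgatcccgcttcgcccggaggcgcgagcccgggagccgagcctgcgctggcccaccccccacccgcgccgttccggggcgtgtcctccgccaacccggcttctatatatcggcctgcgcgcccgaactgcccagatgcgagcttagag
Igfbp7, chr14:31091486-31091735, plus strand: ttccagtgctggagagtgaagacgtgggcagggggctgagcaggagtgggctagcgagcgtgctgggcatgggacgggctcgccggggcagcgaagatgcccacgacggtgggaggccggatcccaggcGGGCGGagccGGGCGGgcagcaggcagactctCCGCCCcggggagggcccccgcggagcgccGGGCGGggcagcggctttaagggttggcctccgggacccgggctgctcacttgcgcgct
Igfbp6, chr7:135154669-135154918, plus strand: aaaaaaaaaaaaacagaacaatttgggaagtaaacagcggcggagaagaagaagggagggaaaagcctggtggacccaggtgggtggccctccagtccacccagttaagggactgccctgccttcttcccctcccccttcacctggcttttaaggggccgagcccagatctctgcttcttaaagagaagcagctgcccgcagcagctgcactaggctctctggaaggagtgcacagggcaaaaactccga
The window of Igf2 start 2 holds 1 GC box, that of Igfbp2 holds 1, and that of Igfbp7, whose level ran opposite to Igfbp2, holds 4. The other windows printed hold none. The windows of Igf1 and Igfbp3 differ in CG dinucleotides, with 3 and 31, and Igf2 had 15 and 7, Igfbp2 11, Igfbp7 26 and Igfbp6 5, against a median of 5 over 33469 windows of the same length. Over the 11 windows of the 10 genes, a TATA box (TATAAA, either strand) was found in 1 (Igfbp4), a GC box in 5 and CCAAT (either strand) in 0, where 12.9%, 30.5% and 34.0% of all windows held them. These are letters in a window, not sites of binding.

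The other genes of the pathway were taken from lists chosen with these results known. Of 35 listed genes of receptor signalling (adaptors, kinases and their targets), 27 were measured. Between the sedentary lines 1 of them was higher in HCR and 4 were lower, a share to be read against 4.99% of all probe sets, and 6 had higher and 21 lower values, with a median of -0.16 against 0.02 for all probe sets. Grb10, an imprinted adaptor that restrains signalling from the insulin and IGF1 receptors, read 8.00, 7.98, 7.90 and 7.94 in sedentary HCR rats and 8.40, 8.59, 8.31 and 8.62 in sedentary LCR rats, with no overlap. It was lower in HCR by a difference of -0.52 ± 0.09 (adjusted p = 0.015) and by -0.36 averaged over both states (adjusted p = 0.0112). Pik3r1, the regulatory subunit of phosphatidylinositol 3-kinase, was higher in HCR by 0.86 ± 0.23 (adjusted p = 0.0462), with 7.49, 7.67, 6.62 and 7.26 against 6.85, 6.37, 6.04 and 6.34, which overlap.

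Gab1, a docking protein (-0.41, adjusted p = 0.0372), Rictor, a subunit of the mTORC2 complex (-0.42, adjusted p = 0.0422), and Foxo3, a transcription factor that AKT keeps out of the nucleus (-0.32, adjusted p = 0.0484), were lower in sedentary HCR rats. Without the rat with low Xist, Pik3r1 stayed called (1.07, adjusted p = 0.0485), while Grb10 (-0.51, adjusted p = 0.0509), Gab1 (-0.40), Rictor (-0.39) and Foxo3 (-0.29) were not. With the array's interquartile range as a covariate none of these 5 was called (Grb10 -0.32, adjusted p = 0.514), and after quantile normalization of the summarised values Grb10 alone of the 27 was, with a list median of -0.04. No gene of this list was called with training in either line.

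Of 9 genes of the growth hormone axis, all measured, Socs1, an inhibitor of cytokine and growth hormone signalling, was higher in sedentary HCR rats (0.24 ± 0.05, adjusted p = 0.0264) and in HCR rats averaged over both states (0.17, adjusted p = 0.0229); without the rat with low Xist the sedentary difference was 0.24 (adjusted p = 0.0765). Igfals, the subunit that joins IGF and IGFBP3 in the blood, was at 0.17 ± 0.08 between sedentary lines (adjusted p = 0.16). None of the 13 measured proteases of binding proteins and their inhibitors was called in any comparison; Pappa2 was at 0.19 ± 0.07 (adjusted p = 0.101) and Ctsd, the lysosomal protease cathepsin D, at -0.11 ± 0.05 (adjusted p = 0.194) between sedentary lines. Of the 10 measured genes of related binding-protein families, 8 had higher values in sedentary HCR than in sedentary LCR rats (55.6% of all probe sets did) and none was called, with 0.88 ± 0.46 for Ccn1, a matrix-associated signalling protein (adjusted p = 0.224), and 0.19 ± 0.08 for Ccn4 of the same family (adjusted p = 0.133). None of the 3 IGF2 mRNA-binding proteins was called, with 0.09 ± 0.06 for Igf2bp1 and 0.06 ± 0.05 for Igf2bp3 between sedentary lines. Of 12 measured imprinted genes, Grb10 was called between sedentary lines (4.99% of all probe sets were). With training in HCR 11 of the 12 had lower values, none called, where 54.4% of all probe sets had lower values. With training in LCR 9 of the 12 had lower values, none called, beside 47.9% of all probe sets.

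The genes nearest to Igf2 in RefSeq order did not all follow it. Of the 10 nearest measured genes, 5 on each side, 8 had higher values in sedentary HCR than in sedentary LCR rats (55.6% of all probe sets did) and 1 was called (4.99%), Ascl2, a transcription factor of the placenta (0.24 ± 0.07, adjusted p = 0.0481). Around the other 9 members, 3 to 7 of the 10 nearest genes had higher values and 0 to 2 were called. H19, the maternally expressed RNA next to Igf2, was at 0.50 ± 0.22 between sedentary lines (adjusted p = 0.162) and at -0.47 ± 0.22 with training in HCR (adjusted p = 0.365). Ins2 on the other side was at 0.13 ± 0.07 (adjusted p = 0.218). Tnnt3, on the H19 side, was at 0.22 ± 0.07 between sedentary lines (adjusted p = 0.0637). Averaged over both states it was the 1 of these 10 genes called (0.20, adjusted p = 0.0344), where 3.84% of all probe sets were called.

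Over the 16 arrays, the genes most like Igf2 by Pearson's r, of 14216 compared, were Cep295nl (0.90), Cyp2b21 (0.89), Npr3 (0.87), Kcnj3 (0.87) and Mmp28 (0.87). Each of these 5 had its highest mean in sedentary HCR rats, as Igf2 did. The genes most like Igf1 were Hrct1 (0.83), Inpp1 (0.80), Ddrgk1 (0.79), Rpl7l1 (0.77) and Mfap1a (0.76), each with its highest mean in trained LCR rats. These values describe likeness over arrays that share groups and array spread.

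Markers of cell types were read beside the members, since in ventricle tissue fewer cells of a type and less RNA per cell cannot be told apart. Cardiomyocyte markers, 7 of 8 measured, had means of 12.1 to 14.3 in the groups, and their mean level, centred on the 16 rats, lay between -0.05 and 0.05 in each rat. All 8 fibroblast markers had lower values in sedentary HCR than in sedentary LCR rats (44.4% of all probe sets did). Of these markers 1 was called (4.99% of all probe sets were), Lum, a matrix proteoglycan (-0.41, adjusted p = 0.0403; -0.45, adjusted p = 0.0825, without the rat with low Xist). The centred level was -0.14 ± 0.066 (SD, n = 4; range -0.19 to -0.04) in sedentary HCR and 0.15 ± 0.094 (0.05 to 0.28) in sedentary LCR rats. Igfbp5, Igfbp6 and Igfbp7 had lower values in the same rats, and the part of fibroblast content in them was not tested. The levels of the 7 measured endothelial markers ranged from 0.02 to 0.09 in sedentary HCR and from -0.11 to 0.04 in sedentary LCR rats, with none called. Atrial markers, 4 of 5 measured, varied widely from rat to rat, at 0.30 ± 0.51 (-0.24 to 0.88) in sedentary HCR, -0.09 ± 0.36 in trained HCR, 0.15 ± 0.25 in sedentary LCR and -0.36 ± 0.50 in trained LCR rats, and all groups overlap. All 5 measured nerve and Schwann cell markers had higher values in sedentary HCR than in sedentary LCR rats (55.6% of all probe sets did). Their level was 0.09 ± 0.052 against -0.09 ± 0.085, with none called.

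Of 9 smooth muscle and pericyte markers, 8 had higher values in sedentary HCR than in sedentary LCR rats (55.6% of all probe sets did). Their centred level was 0.01 ± 0.066 (-0.08 to 0.08) against -0.10 ± 0.096 (-0.19 to 0.03). Of these markers 1 was called (4.99% of all probe sets were), Acta2, smooth muscle actin (0.35, adjusted p = 0.0421; 0.31 averaged over both states, adjusted p = 0.0186). Of 8 measured lymphocyte markers, 7 had higher values in sedentary HCR rats, again beside 55.6% of all probe sets. The other, Klrd1 (CD94, found on natural killer cells), was called lower in sedentary HCR rats (-0.84, adjusted p = 0.0291) and on average (-0.86, adjusted p = 0.00426). Averaged over both states, Cd79b of the lymphocyte list (0.22, adjusted p = 0.0222), Nppa, the atrial natriuretic peptide (1.01, adjusted p = 0.0217), and Tnnt3 of the skeletal muscle list, also a neighbour of Igf2 (0.20, adjusted p = 0.0344), were called higher in HCR. Their lists were mixed in this comparison (3.84% of all probe sets called). Lymphocyte markers split 5 higher and 3 lower, atrial markers 3 and 1, and skeletal muscle markers 4 and 3. The part of these cells in the differences of Igf2 and the binding proteins was not tested.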

How the data were processed

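Per the labels' design text, the authors background-corrected the perfect-match probes, quantile-normalized them and summarised each probe set by RMA before depositing the log values used here as log2. The submitters' processing notes list RMA and limma, no version. No source used here gives the log base, and log2 was inferred from a range of 3.24 to 14.54; with another base, folds would change and signs and tests would not. A genome build is likewise not given in the sources used.

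Of 31099 rows 57 controls were left out. All 31042 other probe sets were fitted with limma 3.58.1 in R 4.3.3, with 1 mean for each of 4 groups, 16 arrays, 12 residual degrees of freedom and no filter, and p-values were adjusted by Benjamini-Hochberg over all of them in each of 7 comparisons. The fit was tested on simulated data. Gene names came from the platform's annotation table (20826 probe sets with 1 symbol, 436 with several, 9780 unlisted). Named are the members, the called genes of each pathway list or, where none was called, the 2 of lowest p for the line average, and the 5 genes most like Igf1 and Igf2; Igfals, neighbours and markers were chosen after their values were seen. Members and gene lists were chosen with earlier results of these data known. Arrays give no read depth.

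Alternatives were 1 probe set per gene, bright probe sets, the compared groups alone, median centring, quantile normalization, a variance trend, the mean of a gene's probe sets, the replicate number as a block, and leaving out each rat. The interquartile range as a covariate was added after seeing the data.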

Additional observations from a re-analysis of the deposited data

Results flagged for a closer look

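Of 92 groups of 4 rats checked, 1 held a rat far from the rest, where chance gives about 1 in 20. Igf2 (1367571_a_at) read 8.081 in the trained HCR rat numbered 6 and 7.67 to 7.69 in the other 3 rats of its group. No member's training difference passed the test of a difference between the lines.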

How the results depend on the processing

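Of 1720 values of the 10 genes recomputed, 6 lost a call and 18 gained one. The sign changed in 97, none of them called before or after, and in 16 of these the value moved by more than 1 SE. Between sedentary lines the count of called IGF genes, 1 of 10, was 2 with 1 probe set per gene and with bright probe sets only (Igf2 and Igfbp2), 4 with only the compared groups in the fit (these, Igfbp5 and Igfbp6), and 0 with the interquartile range as a covariate, which was chosen after seeing the data. Igf2 was also not called with the mean of its probe sets, and was called in 7 of 9 settings. The count over all probe sets ran from 2 to 3000 over the settings. With quantile normalization 1 was called for training averaged over lines (Igfbp5), a comparison with 0 to 5 of all probe sets called over the settings.

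With the replicate number as a block 3 were called between sedentary lines (Igf2, Igfbp2 and Igfbp6) and 2 for the line average (Igf2 and Igfbp6). The titles number the rats and name no pairs. Deviations of same-numbered rats had r from -0.23 to 0.34, 6 of 16 over 0.1, and 5 of 16 rats correlated best with their own number. Whether same-numbered rats shared a batch was not tested. Leaving out 1 rat at a time gave 0 to 2 called between sedentary lines, 0 to 2 for the line average, and 0 to 1 each for training in HCR, in LCR and on average. Over all probe sets, the count called between sedentary lines ran from 2 to 3000 over the settings and from 35 to 1994 over the left-out rats. For the line average it ran from 46 to 1779 and from 520 to 2575. Over the left-out rats it ran from 0 to 39 for training in HCR, 1 to 4 in LCR and 0 to 11 on average.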
